A study of Homo sapiens with 2 samples.

Results

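The genes described here are DSP, which encodes desmoplakin, and 9 further desmosome genes, JUP, PKP1, PKP2, PKP3, PKP4, DSC2, DSC3, DSG2 and DSG3. They were taken from 19775 genes on the array as all probe sets that the platform annotation pairs with exactly 1 of these symbols, which gave 24 probe sets. DSP was chosen because it differed between the 2 arrays of the study, and the other 9 for their place in the desmosome, so the DSP difference is a description with no test. The cells were C33-A, an established human cervical carcinoma line that carries no papillomavirus. In the CA9 line, called CA9 cells here, they had been stably transfected with the full-length human cDNA of CA9, cloned in the plasmid pcDNA3.0, whose insert is driven by a strong viral promoter. CA9 encodes carbonic anhydrase IX, a membrane enzyme that hydrates carbon dioxide outside the cell. In the vector line, the vector cells, they had received the empty plasmid. Both lines were grown in RPMI with 10% serum and sampled on day 4 after seeding, and each was measured on 1 Affymetrix array. Whether a line is 1 clone or a pool is not given in the sources used here, and CA9 itself has no single-gene probe set in the annotation used, so its level was not analysed here and cannot serve as a check on the labels.

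Desmosomes are spot junctions that tie the intermediate filaments of neighbouring cells together and give epithelia and heart muscle their resistance to pulling. Desmocollins (DSC) and desmogleins (DSG) are the cadherins that span the membrane and bind across the gap, plakoglobin (JUP) and the plakophilins (PKP) are armadillo-repeat proteins that gather on their tails, and desmoplakin links that plaque to keratin, vimentin or desmin filaments. DSC2, DSG2 and PKP2 serve simple epithelia and heart, whereas DSC3, DSG3 and PKP1 are typical of stratified epithelia.

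The 250 bases before the annotated transcript start were read from RefSeq (GRCh38.p14) for the 8 member genes listed there, which have 11 such windows, since DSC2, JUP and PKP4 have more than 1 start. PKP2 and PKP3 have no entry. The windows of DSP, DSG2 and the downstream start of JUP are shown because each holds 2 copies of CAGGTG or its reverse complement CACCTG. This is the E-box form that SNAIL and ZEB repressors are known to bind. The other JUP window holds no copy, and which start the cells use was not measured. They are printed 5′ to 3′ on the strand of the gene, with both forms in capitals. The DSP window lies at chr6:7541421-7541670 on the plus strand, that of DSG2 at chr18:31497927-31498176 on the plus strand, and that of JUP at chr17:41785977-41786226 on the minus strand.
DSP: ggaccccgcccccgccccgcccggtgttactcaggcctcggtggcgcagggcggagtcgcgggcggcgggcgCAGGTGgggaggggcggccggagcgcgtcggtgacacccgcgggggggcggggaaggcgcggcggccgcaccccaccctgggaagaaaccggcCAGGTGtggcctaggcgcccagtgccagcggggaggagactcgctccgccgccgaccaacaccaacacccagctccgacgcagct
DSG2: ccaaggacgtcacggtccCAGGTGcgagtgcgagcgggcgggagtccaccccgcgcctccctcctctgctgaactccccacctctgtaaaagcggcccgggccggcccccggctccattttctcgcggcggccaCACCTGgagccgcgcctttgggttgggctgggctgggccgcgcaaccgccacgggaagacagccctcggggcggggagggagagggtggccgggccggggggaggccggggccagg
JUP: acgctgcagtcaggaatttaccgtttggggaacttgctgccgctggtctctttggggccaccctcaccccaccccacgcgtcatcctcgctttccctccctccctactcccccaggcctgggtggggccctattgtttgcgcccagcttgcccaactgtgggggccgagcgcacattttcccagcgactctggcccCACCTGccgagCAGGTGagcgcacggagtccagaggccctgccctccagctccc

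In the DSP window the copy farther from the start ends 173 bases before it and the nearer one 80 bases before it. The copies of DSG2 end 227 and 111 bases before the start, and those of JUP 49 and 38 bases before it. DSC2 has 1 copy in 1 of its windows, which makes 4 of 11 member windows with the motif, against 17.5% of 35116 windows of the same length in the table. DSP also holds 7 copies of GGGCGG on either strand, the GC box that SP1 binds. That motif is in 8 of the 11 member windows and in 42.6% of all windows, and none of its copies shares bases with a CAGGTG copy. G and C make up 78.0% of the DSP window and 42.8% of the DSG3 window, against a median of 58.0% over all windows. Neither TATAAA, the TATA box, nor TGANTCA, an AP-1 motif, occurs on either strand of a member window, and 10.7% and 6.57% of all windows hold them. These matches are letters in a window and no measure of binding.

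Of the 10 desmosome genes, DSP alone was at least 2-fold apart between the lines, and it was lower in CA9 cells. Its probe set, 200606_at, gave intensities of 49.4 in CA9 cells and 180.0 in vector cells, a 3.64-fold lower value and a log2 difference, CA9 minus vector, of -1.87. Both values lie above the floor of 40.8, the median over both arrays of every probe set that is no control, although the CA9 value is close to it. DSP has no second probe set to set beside this one, as is so for 33.3% of the genes at least 2-fold lower. A gene was counted as measurable if its higher array lay above that floor, and a gene with several probe sets was represented by the one with the highest mean log2 intensity. In a bulk RNA sample, fewer cells that make a transcript and less transcript per cell cannot be told apart. Each line had a single array, so no difference can be set against the spread between cultures, no p-value is given, and the number of arrays limits the precision.

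Counted over genes, 1 of the 7 measurable members was lower in CA9 cells by 2-fold or more and 0 were higher by as much. Over all 13823 measurable genes the shares were 0.694% lower and 0.651% higher. Nothing is read from the DSP count, since DSP was picked from this contrast. Among the 3610 measurable genes whose mean log2 intensity lay within 0.5 of that of DSP, 0.886% were at least 2-fold lower. DSP had the 12th most negative log2 difference of the measurable genes. The median log2 difference was -0.017 over the 7 measurable members and -0.032 over all measurable genes.

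**Figure D1:**
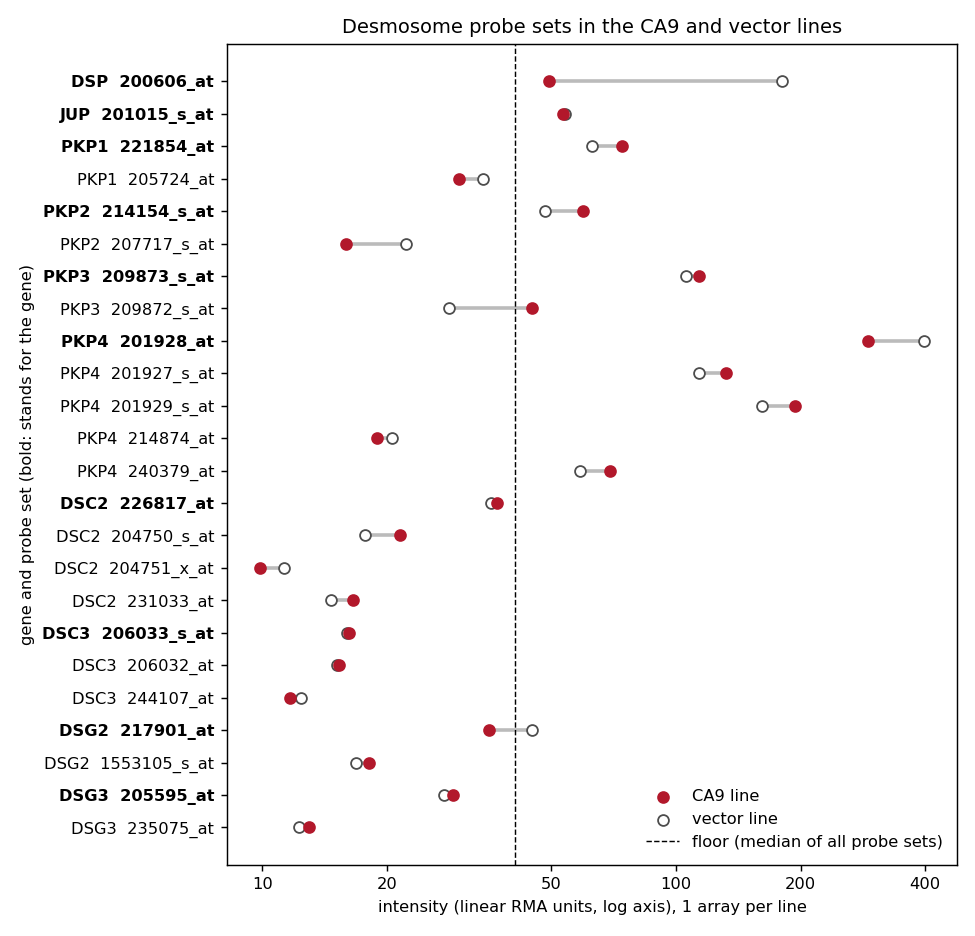
Intensity of every desmosome probe set on the CA9 array (filled) and the vector array (open), on a log axis, with the floor of 40.8 as a dashed line and 1 array per line. DSP spans 49.4 in CA9 cells and 180.0 in vector cells. The paired points of the other genes lie closer together, with log2 differences from -0.48 to 0.67, and 13 of the 24 probe sets are below the floor on both arrays.

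The remaining 6 measurable members had log2 differences from -0.45 to 0.30, a range that also holds 73.0% of all measurable genes. PKP1, PKP2 and PKP3 were above 0, JUP, PKP4 and DSG2 were below it, and none reached 2-fold. Technical disagreement can be gauged from genes with several probe sets, whose log2 differences scattered about the gene's mean with an SD of 0.31, pooled over 6186 genes. Such probe sets read the same RNA on the same array, so this SD is no replicate error.

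Among the plaque genes, JUP is the armadillo protein that sits between the cadherin tails and desmoplakin and that adherens junctions also use. JUP gave 53.4 in CA9 cells and 54.0 in vector cells, a log2 difference of -0.017. Its values were nearly equal while those of DSP, its partner in the plaque, were not. Both JUP values are close to the floor of 40.8, however, so little can be read from their equality. JUP has 1 probe set, of the _s_at kind, which can also detect related transcripts.

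The plakophilins strengthen the plaque sideways and bind desmoplakin. PKP1, best known from stratified epithelia, had 73.8 in CA9 cells and 62.6 in vector cells, a log2 difference of 0.24, and its second probe set was below the floor on both arrays. PKP2, the plakophilin of simple epithelia and heart, had 59.5 in CA9 cells and 48.2 in vector cells, a log2 difference of 0.30. The other PKP2 probe set lay below the floor on both arrays, at 15.9 in CA9 cells and 22.2 in vector cells. Thus only the brighter PKP2 probe set lay above the floor, and it was higher in CA9 cells by less than 2-fold. Its value in vector cells is close to the floor of 40.8, so little can be read from this difference. Both PKP2 probe sets are of the _s_at kind.

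PKP3, the plakophilin that can bind the widest range of desmosomal partners, had 114 in CA9 cells and 106 in vector cells, a log2 difference of 0.10. Its second probe set had 45.0 in CA9 cells and 28.3 in vector cells; the second value is under the floor, and against the floor PKP3 was at least 1.10-fold higher in CA9 cells. Both PKP3 probe sets lay on the same side of 0, and neither reached 2-fold. They too are of the _s_at kind.

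PKP4, also called p0071, is found at adherens junctions as well as desmosomes and has 5 probe sets. Its brightest, 201928_at, had 291 in CA9 cells and 398 in vector cells, a log2 difference of -0.45. The 3 others above the floor went the other way. The probe set 201929_s_at had 194 in CA9 cells and 162 in vector cells, 201927_s_at had 132 in CA9 cells and 113 in vector cells, and 240379_at had 69.3 in CA9 cells and 58.8 in vector cells, with log2 differences of 0.26, 0.22 and 0.24. The sign of PKP4 therefore depends on the probe set that stands for it, and the mean over its probe sets was 0.029.

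**Figure D2:**
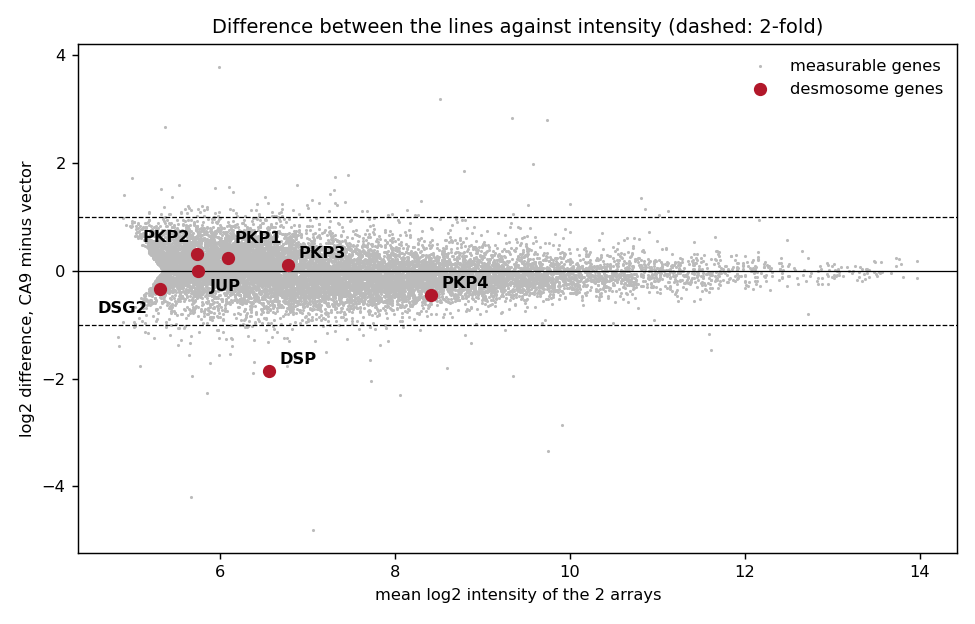
Log2 difference, CA9 minus vector, against the mean log2 intensity of the 2 arrays for all measurable genes (grey) and the 7 measurable desmosome genes (red), with 2-fold as dashed lines. DSP lies at -1.87, at the sparse lower edge of the grey points, and the other desmosome genes lie inside the cloud.

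Of the desmosomal cadherins, little lay above the floor in either line. DSG2, the desmoglein of simple epithelia, was the only one to pass the floor, and only in vector cells. Its probe set 217901_at had 35.3 in CA9 cells and 44.9 in vector cells, which makes CA9 cells lower by at least 1.10-fold against the floor. Its second probe set lay below the floor, at 18.1 in CA9 cells and 16.8 in vector cells.

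DSC2, DSC3 and DSG3 lay below the floor on both arrays in every probe set, as did 30.1% of all genes in their brightest one. The 4 probe sets of DSC2, the desmocollin of simple epithelia, ran from 9.87 to 36.9 in CA9 cells and from 11.3 to 35.8 in vector cells. The 3 of DSC3 ran from 11.7 to 16.2 in CA9 cells and from 12.4 to 16.1 in vector cells. The 2 of DSG3, the desmoglein of basal squamous cells and the autoantigen of pemphigus vulgaris, had 28.9 and 12.9 in CA9 cells and 27.5 and 12.3 in vector cells. No fold is given for these genes, and a difference between the lines was not detectable at these intensities.

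Other components that desmosomes may contain were followed in a list of 6 genes. DSC1, DSG1 and DSG4, cadherins of differentiated epidermis and hair, lay below the floor on both arrays. PERP, a tetraspan protein of desmosomes and a target of p53 and p63, had 452 in CA9 cells and 709 in vector cells, a log2 difference of -0.65. A second PERP probe set had 138 in CA9 cells and 222 in vector cells, at -0.68, while another near the floor was at 0.076. KAZN, kazrin, a partner of the plakin periplakin, had 136 in CA9 cells and 224 in vector cells, at -0.72, but another of its probe sets had 98.9 in CA9 cells and 51.5 in vector cells, at 0.94. CDSN, corneodesmosin, was at 0.21. None of the 3 measurable genes reached 2-fold, and their median was -0.65. That median was 0.076 with _x_at and _s_at probe sets left out and -0.16 with the probe sets of a gene averaged.

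The plakins, the family of large linker proteins to which desmoplakin belongs, showed no difference of that size. All 6 were measurable, 5 were above 0, none was 2-fold apart, and the median log2 difference was 0.21. Over all measurable genes 45.9% were above 0, and the shares at least 2-fold apart, 0.694% lower and 0.651% higher, are so low that a count of 0 or 1 in this list and those below says nothing particular about a list. EVPL, envoplakin of the cornified envelope, had the value farthest from 0, with 76.6 in CA9 cells and 53.9 in vector cells, at 0.51. PLEC, plectin, which anchors filaments at hemidesmosomes, had 156 in CA9 cells and 122 in vector cells, at 0.36, and 0.79 in a second probe set. MACF1, an actin and microtubule linker, was the member below 0, at -0.30.

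The armadillo relatives of JUP and the plakophilins had 3 measurable genes, all below 0 and none 2-fold apart, with a median of -0.092. CTNNB1, beta-catenin, which can trade places with plakoglobin on classical cadherins, had 2855 in CA9 cells and 3044 in vector cells, at -0.092. Its 2 other probe sets above the floor on at least 1 array were farther from 0, at -0.40 and -0.30. APC, which marks beta-catenin for destruction, had 74.0 in CA9 cells and 118 in vector cells, at -0.67. A second APC probe set above the floor on both arrays lay at -0.52. CTNND2 was below the floor, and CTNND1 was not analysed here.

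In the adherens junction list, 10 of 13 genes were measurable, 4 above 0 and 6 below, with none 2-fold apart and a median of -0.10. The classical cadherins CDH1 (E-cadherin) and CDH3 (P-cadherin) lay below the floor on both arrays. CDH2, N-cadherin, had 58.2 in CA9 cells and 45.3 in vector cells, at 0.36. CTNNA3, an alpha-catenin that binds plakophilins in heart, had 252 in CA9 cells and 406 in vector cells, at -0.69, with -0.97 and -0.18 in 2 others. AFDN, afadin of the nectin complex, was at -0.38, but its only other probe set above the floor on at least 1 array was at 0.57.

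Of the intermediate filament genes whose proteins desmosomes anchor, 10 of 13 were measurable, 7 of them above 0 (45.9% over all measurable genes), with a median of 0.23. VIM, vimentin, was the only one at least 2-fold apart, with 2867 in CA9 cells and 1131 in vector cells, in a probe set of the _s_at kind. Its other probe set was below the floor on both arrays, at 11.4 in CA9 cells and 9.84 in vector cells. VIM fell short of 2-fold when both were averaged, but that average is not read because it includes the probe set below the floor. Next in size was KRT14, a basal keratin, with 64.4 in CA9 cells and 41.7 in vector cells, at 0.63. The simple-epithelial pair KRT8 and KRT18 had 101 and 80.2 in CA9 cells and 68.3 and 56.1 in vector cells, at 0.57 and 0.52. KRT5 was at -0.30, with the CA9 array below the floor.

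Of 16 transcription regulators of epithelial junction genes, 9 were measurable, 6 of them above 0 and none at least 2-fold apart, with a median of 0.15. KLF4, an activator of epithelial genes, had 58.1 in CA9 cells, lay below the floor in vector cells, and was at least 1.42-fold higher in CA9 cells. ZEB1, a repressor of epithelial junction genes that binds the E-box shown above, had 233 in CA9 cells and 363 in vector cells, at -0.64, and a second probe set above the floor on both arrays was at -0.26. SNAI1 was at 0.17, and SNAI2 and ZEB2 lay below the floor on both arrays. TP63, an activator of desmosome genes in squamous cells, was not analysed here.

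All 20 genes of desmosome assembly and turnover were measurable, 10 on each side of 0, with none at least 2-fold apart and a median of -0.0027. PRKCA, the protein kinase C that loosens desmosomes when it is active, had 108 in CA9 cells and 176 in vector cells, at -0.70, and its other probe set above the floor was at -0.33. Its relative PRKCE had 72.7 in CA9 cells and 49.5 in vector cells, at 0.55, but -0.30 and -0.23 in other probe sets. For the receptor gene EGFR, the brightest probe set was at 0.27. Its 5 other probe sets above the floor on at least 1 array ran from -1.03 to 0.077, the lowest with the CA9 array below the floor. Without _x_at and _s_at probe sets EGFR was represented by 1565483_at, with 39.4 in CA9 cells, which is below the floor, and 80.5 in vector cells, at least 1.97-fold lower in CA9 cells.

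**Figure D3:**
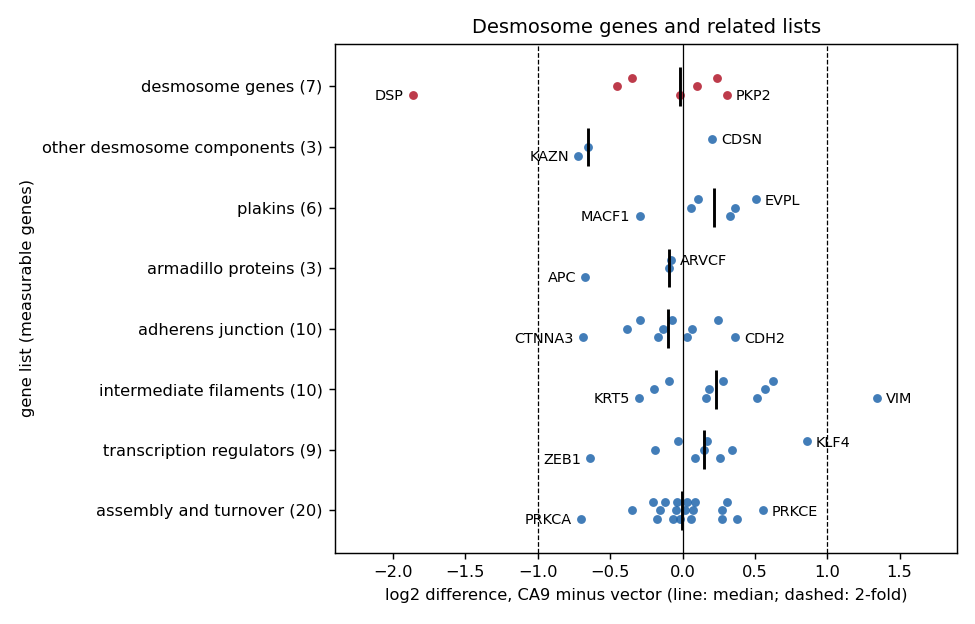
Log2 difference, CA9 minus vector, of each measurable desmosome gene (red) and of 7 related lists (blue), with the list median as a vertical line, 2-fold as dashed lines, and the lowest and highest gene of each list named. DSP and VIM are the only points beyond 2-fold, on opposite sides.

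By position, none of the measurable genes beside DSP was 2-fold apart. Its nearest measurable protein-coding neighbours in the order of the RefSeq gene table were RIOK1, a kinase of ribosome maturation, at -0.49, and SNRNP48, a protein of the minor spliceosome, at -0.15. SSR1, of the translocon, was at -0.042 and BMP6, a growth factor, at 0.40. RIOK1 had 435 in CA9 cells and 610 in vector cells.

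DSC3, DSC2, DSC1, DSG1, DSG4, DSG3 and DSG2 follow each other in one cluster on chromosome 18, with CDH2 on 1 side and TTR on the other. Within the cluster DSG2 was the only gene above the floor on an array. TTR, transthyretin, was at 0.14 and B4GALT6, a glycolipid enzyme, at -0.23. Over all 10 members, 45 other protein-coding genes lay within 3 places on either side, 28 of them were measurable, and 0 were at least 2-fold apart in either direction. Since 0.694% of all measurable genes were that much lower and 0.651% that much higher, a count of 0 among 28 is near the background. Their median log2 difference was 0.065.

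**Figure D4:**
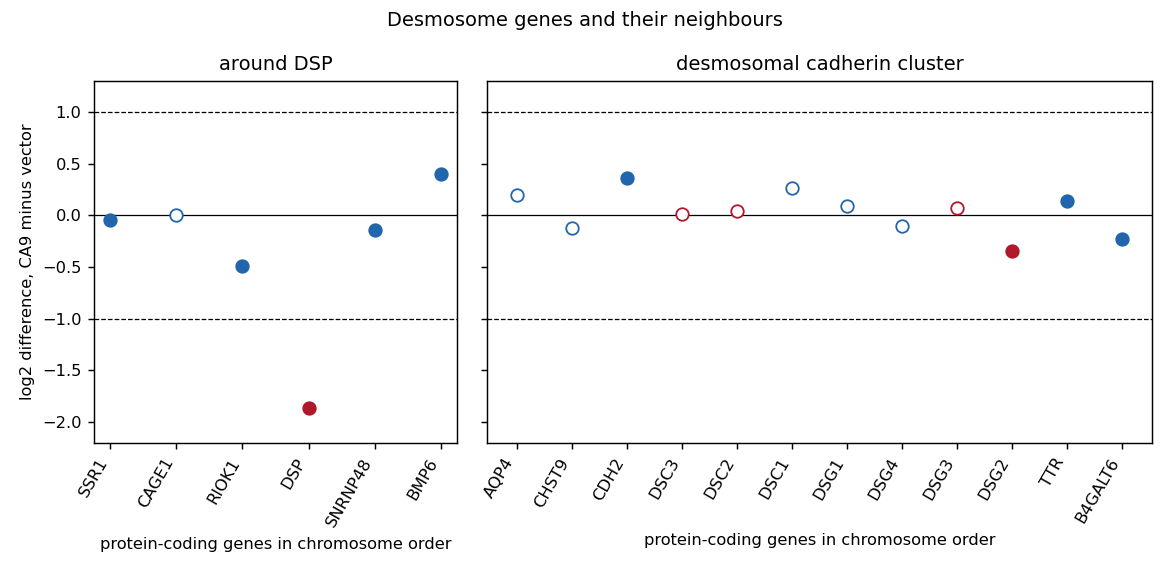
Log2 difference, CA9 minus vector, of the protein-coding genes with a single-gene probe set, in chromosome order (not to distance), around DSP and across the desmosomal cadherin cluster. Red marks members, blue their neighbours, and open symbols genes below the floor on both arrays. DSP lies at -1.87 while RIOK1 beside it is at -0.49 and SNRNP48 at -0.15.

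The genes most like DSP were those nearest to it in the plane of mean log2 intensity and log2 difference. With 2 arrays this likeness rests on 2 values per gene. The nearest was the non-coding LINC00052, with 47.2 in CA9 cells and 180.3 in vector cells, at a distance of 0.076. Next came RGS20, a regulator of G protein signalling, PCDH9, a protocadherin, FGF9, a growth factor, and MAP3K1, a kinase upstream of JNK, at distances from 0.18 to 0.39. Their log2 differences ran from -1.89 for RGS20 to -1.61 for MAP3K1.

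The cells were checked against markers of their labelled epithelial type. Of 7 simple-epithelium markers 5 were measurable, and EPCAM and CDH1 lay below the floor on both arrays. The summed intensity of the 7 was 368 in CA9 cells and 295 in vector cells. The brightest of them, KRT8, had 101 in CA9 cells and 68.3 in vector cells, against a floor of 40.8. Of 7 stratified-epithelium markers 5 were measurable and KRT13 and DSG1 were not, and the summed intensity of all 7 was 421 in CA9 cells and 439 in vector cells. For other cell types, the sums in CA9 cells and in vector cells were 2908 and 2703 for 6 fibroblast markers, 185 and 209 for 4 blood cell markers, 181 and 152 for 4 endothelial markers, and 256 and 223 for 4 heart muscle markers. Most of the fibroblast sum came from COL3A1 alone, with 2538 in CA9 cells and 2339 in vector cells. No marker of these lists was at least 2-fold apart. The lists differ in length and their sums include genes below the floor, so sums of different lists cannot be compared. Whether the cells are epithelial cannot be read from them. As to RNA quality, the ACTB controls were brighter at the 3′ than at the 5′ end by 0.67 (log2) for CA9 cells and 0.73 for vector cells, and the GAPDH controls by 0.062 for CA9 cells and 0.038 for vector cells. The hybridisation spike-ins differed, CA9 minus vector, by a median log2 value of 0.41, the poly-A spike-ins by -0.20, and the 18S ribosomal RNA controls differed by -2.15 to -0.92. Their part in the DSP value was not tested.

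DSP stayed beyond 2-fold under all 6 other settings tried, of which the 2 that change the choice of probe set could not alter it. Its log2 difference ran from -1.93 with equal array medians to -1.38 with 32 intensity units added to each value before log2. Of the other measurable members, JUP and DSG2 stayed below 0 and PKP1 and PKP3 above 0 in every setting that kept them. PKP4 changed sign on averaging over probe sets, and so did PKP2. Averaging left 5 members measurable and put PKP2 and DSG2 below the floor on both arrays. The averaged signs of PKP2 and DSG2 are therefore not read.

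**Figure D5:**
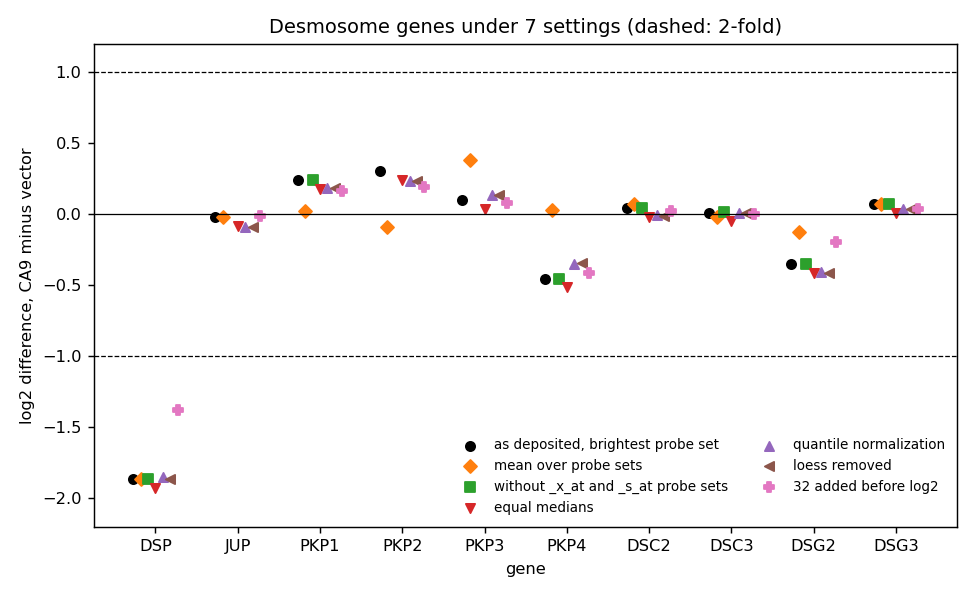
Log2 difference, CA9 minus vector, of the 10 desmosome genes under up to 7 settings, each a symbol, with 2-fold as dashed lines. JUP, PKP2 and PKP3 have only _s_at probe sets and so no value in the setting without _x_at and _s_at probe sets. DSP stays between -1.93 and -1.38, and no other member reaches 2-fold under any setting.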

How the data were processed

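Gene expression was measured on 1 Affymetrix array per line. The deposited file holds an intensity for each probe set on each array, made by the authors with RMA per the submitters' processing notes, whose version is not given in the sources used here. The deposited intensities are linear, as their values show, so log2 was taken with no pseudocount; the plan had assumed log2 values. Median intensities were 41.8 (CA9) and 40.1 (vector). Gene symbols came from the platform annotation, updated by Entrez identifier through the RefSeq table of GRCh38.p14. The differences were computed over all genes and only desmosome genes and the related lists are shown.

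Members and lists were chosen with earlier results of these data known. Named genes were all members, the genes of each list at least 2-fold apart or the 2 farthest from 0, the measurable neighbours within 3 genes, and the 5 genes nearest to DSP. CDSN, MACF1, CDH2, KRT5, KRT8, KRT18, SNAI1, EGFR and list genes below the floor were named after their values were seen. A protein comparison was planned but not run. The scripts were tested on simulated data. The number of arrays limits the precision. Alternatives covered scaling, floor, pseudocount and probe set choice. Python 3.11.15, numpy 2.4.6, pandas 2.3.3, statsmodels 0.14.6 and matplotlib 3.10.9 were used.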

Additional observations from a re-analysis of the deposited data

How the results depend on the processing

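Among 6 alternative settings for each gene value and 8 for counts and lists, the difference of DSP moved by more than the SD between probe sets only when 32 was added before log2, to -1.38, and 1 member was at least 2-fold lower and 0 higher in all 8. The median of the measurable members was -0.40 without _x_at and _s_at probe sets, where 4 remained, and -0.45 with 3 members left above a floor at the 75th percentile. JUP, PKP2 and PKP3 have only _s_at probe sets and dropped out of the former. Genes at least 2-fold higher and lower numbered 44 and 48 with averaged probe sets and 29 and 34 with 32 added, against 90 and 96, and 56 were higher at the 75th percentile floor. Measurable genes numbered 13823 in the main setting and with 32 added, 11972 with averaged probe sets and 8516 at that floor. The counts with averaging and at the higher floor were thus taken over fewer genes. With equal array medians 69 were higher and 123 lower, so that higher genes made up 35.9% in place of 48.4% of them. The median of the other desmosome components was -0.16 with averaged probe sets, where 2 genes were measurable. Without _x_at and _s_at probe sets it was 0.076, the value of the PERP probe set near the floor. With no floor it was -0.0034, over 6 genes in place of 3. The filament list had 0 genes at least 2-fold apart, against 1, with averaged probe sets and without _x_at and _s_at probe sets, and the assembly list had 1, EGFR, without them, in a probe set below the floor in CA9 cells (at least 1.97-fold lower against the floor, whereas its brightest probe set was at 0.27). The filament gene lost was VIM, whose only probe set above the floor is of the _s_at kind. Averaging joined it to a probe set below the floor on both arrays. DSP did not change sign. Several of these shifts go with a change in which genes or probe sets were counted, and any further cause was not tested. No paired analysis was possible because each line has 1 array, and no replicate could be left out for the same reason.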
